A study of Bos taurus with 31 samples.

Results

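Liver transcriptomes of GLYHC cows were set against those of GLYLC cows, which asks what a higher concentrate feed proportion (CFP) did to hepatic gene expression while the feed of both groups carried glyphosate residues. All 15 animals were lactating German Holstein cows on a glyphosate-contaminated total mixed ration offered ad libitum, with concentrate making up 60% of dry matter in GLYHC (8 cows) and 30% in GLYLC (7 cows). The residues came from peas, wheat grain and above all straw that had been sprayed before harvest with the herbicide formulation Roundup Record, and since intake was free, the dose of glyphosate was not held equal between the groups. Liver was sampled by puncture biopsy at week 16, each cow gave 1 library, and the labels give no ages. The whole series holds 31 cows, and the 16 others (8 CONHC and 8 CONLC, fed the same proportions of concentrate without the contaminated components) entered here only for the estimate of the spread and for a comparison with cows outside the GLY groups. A gene was included when it had at least 20 reads summed over the 15 GLY libraries, which 15272 of 24616 genes did, and 13918 of them carried a symbol. Of the 9344 genes left out, 5930 had no read in any of these libraries.

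Concentrate is the grain-rich part of a dairy ration. Rumen microbes ferment its starch quickly and yield more propionate, from which the bovine liver makes glucose, while a high share can acidify the rumen and release bacterial endotoxin that portal blood carries to the Kupffer cells, the resident macrophages of the liver. Glyphosate blocks an enzyme of the plant shikimate pathway that mammals do not have.

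Between 11713412 and 32775144 reads per GLYHC cow (median 21741495) and between 19071749 and 36675542 per GLYLC cow (median 20722019) were assigned to genes. Levels are given as CPM, read counts scaled to library size and to edgeR's TMM factors, and CPM are not corrected for gene length, so they compare cows and not genes. The 26 genes of a hepatocyte list were all read, summing to between 200400 CPM (GLYLC cow 912) and 278900 CPM (GLYLC cow 209) in the 15 cows. Mean log2 CPM of this list, as distance from the 15-cow median per gene, was -0.43 in cow 912 and at least -0.14 in every other cow. Albumin (ALB) differed by -0.01 on the log2 scale between the groups. GLYLC cow 912 stood apart from the rest. On the first principal component of the 15 libraries (20.9% of variance) it lay at 71.5, with the other 14 between -29.6 and 18.5, and in it 111 tested genes were over 10 times higher than in any of the other 30 cows, a count that was 0 or 1 in each of the other 14. It summed to 3340 CPM over a list of smooth muscle contractile genes (other 6 GLYLC cows at most 584, GLYHC cows at most 931) and to 785 CPM over an intestinal epithelium list (at most 238 and 489), so values without this cow stand beside many of the results.

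Few genes passed the test across all genes. Calling required a p under 0.05 before and under 0.1 after Benjamini-Hochberg adjustment in edgeR's quasi-likelihood test, and 8 genes were called, of which 1 was higher (0.00655% of the genes tested) and 7 were lower (0.0458%) in GLYHC. All 8 had an adjusted p of 0.0753. The gene called higher was the epidermal keratin KRT1, read in GLYHC at 0 to 4.65 CPM (median 0.0587) and in GLYLC at no more than 0.0532 CPM. Its level came from GLYHC cows 154, 32 and 117 at 4.65, 2.64 and 1.215 CPM, with the other 5 GLYHC cows at no more than 0.117 CPM. Of 23 epidermal genes in the count data 9 passed the filter on reads. Among these 9, KRT1 included, 4 were higher and none lower at an unadjusted p under 0.05 (3 without cow 912). Over all tested genes 5.13% were higher (4.01% without cow 912). KRT1 passed the filter through its reads in GLYHC, so this count is not independent of its call. Mean log2 CPM of the 9, as distance from the median per gene, was 1.64, 1.26 and 1.11 in cows 154, 32 and 117. It was at most 0.32 in the other 5 GLYHC cows and at most 0.065 in GLYLC. Whether members besides KRT1 also passed the filter through these cows was not tested. The count therefore cannot decide whether epidermal genes other than KRT1 were higher in GLYHC. The part of skin cells in the KRT1 call was not tested. Of the 7 called lower, ACTG2, S100G, FABP2, BCO1 and ENSBTAG00000047700 were over 10 times higher in cow 912 than in any other cow of the series. SPRY2 and SUGT1 were the remaining pair. Without cow 912 no gene was called by edgeR (smallest adjusted p = 0.212, 1266 genes at an unadjusted p under 0.05).

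The threshold fell inside a dense run of genes. Another 63 genes (19 higher, 44 lower) had an edgeR adjusted p between 0.1006 and 0.11, and 22 of these 44 were over 10 times higher in cow 912 than in the other 14 GLY cows. At an unadjusted p under 0.05 edgeR counted 784 genes higher (5.13%) and 1160 lower (7.6%) in GLYHC, which became 602 (4.01%) and 664 (4.42%) without cow 912. DESeq2 on the same 15 cows called 56 genes higher (0.367%) and 31 lower (0.203%), and without cow 912 it called 52 higher (0.346%) and 34 lower (0.226%). The fits shared 58 calls, 39 higher and 19 lower, which were 66.7% of the first set and 67.4% of the second, all in the same direction. DESeq2 replaced outlying counts by imputed ones in 303 genes, 225 of them in cow 912, but only 2 of its 87 calls on 15 cows held such a count. Below, a gene is described as called by DESeq2 where it was called in both of these fits. Among the 12538 genes with a median of at least 0.5 CPM, 4 were higher (0.0319%) and 9 were lower (0.0718%) in every GLYHC cow than in every GLYLC cow. Since each library is a different cow, the p-values set the group difference against the spread between cows, which edgeR estimated over all 31.

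SPRY2, a feedback inhibitor of receptor tyrosine kinase and ERK signalling, was the gene with the smallest p. Its level ran from 10.7 CPM (lowest) through 13.3 (median) to 14.7 (highest) in the 8 GLYHC cows, and from 16.03 through 20.2 to 26.4 in the 7 GLYLC cows. Every GLYHC cow thus lay below every GLYLC cow. The log2 fold change was -0.62 ± 0.11 (SE) with an edgeR adjusted p of 0.0753, and DESeq2 called it (adjusted p = 0.002 on 15 cows, 0.000428 without cow 912). In the 36-symbol list of ERK feedback and immediate early genes it was the only member called by edgeR. The 33 tested members held 3 genes higher and 3 lower at an unadjusted p under 0.05. Their median log2 fold change was 0.13 beside -0.01 over all tested genes. Without cow 912 they held 5 higher and 3 lower with a median of 0.28. The shares of all tested genes were 5.13% higher and 7.6% lower (4.01% and 4.42% without cow 912). SPRY2, ERRFI1 and SPRY1 belong to this list. ERRFI1, an inhibitor of the EGF receptor, spanned 76.5 to 229 CPM in GLYHC and 85.5 to 598 in GLYLC (log2 fold change -1.05 ± 0.32, edgeR adjusted p = 0.19). SPRY1, a relative of SPRY2, differed by -0.24 ± 0.09 (edgeR adjusted p = 0.249).

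SUGT1 encodes a co-chaperone of HSP90. It was read at 11.99, 13.6 and 15.7 CPM (lowest, median, highest) in GLYHC and at 15.2, 17.3 and 19.0 CPM in GLYLC, with slight overlap between the groups. The log2 fold change of -0.32 ± 0.07 was small against that of SPRY2, with values close together within each group (edgeR adjusted p = 0.0753, 0.124 by DESeq2 without cow 912). CCT2 and SELENOK were also among the 14 lower genes with the smallest p. CCT2, a subunit of the cytosolic chaperonin, had a median of 78.6 CPM in GLYHC and 98.5 in GLYLC (log2 fold change -0.41 ± 0.10, edgeR adjusted p = 0.102) and was not called by DESeq2 (adjusted p = 0.118 on 15 cows, 0.19 without cow 912). SELENOK, a selenoprotein of the endoplasmic reticulum, had medians of 19.0 and 26.6 CPM (-0.58 ± 0.13, adjusted p = 0.102) and was called by DESeq2. Its highest value, 52.0 CPM, was that of cow 912, and without that cow the log2 fold change was -0.38.

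**Figure D1:**
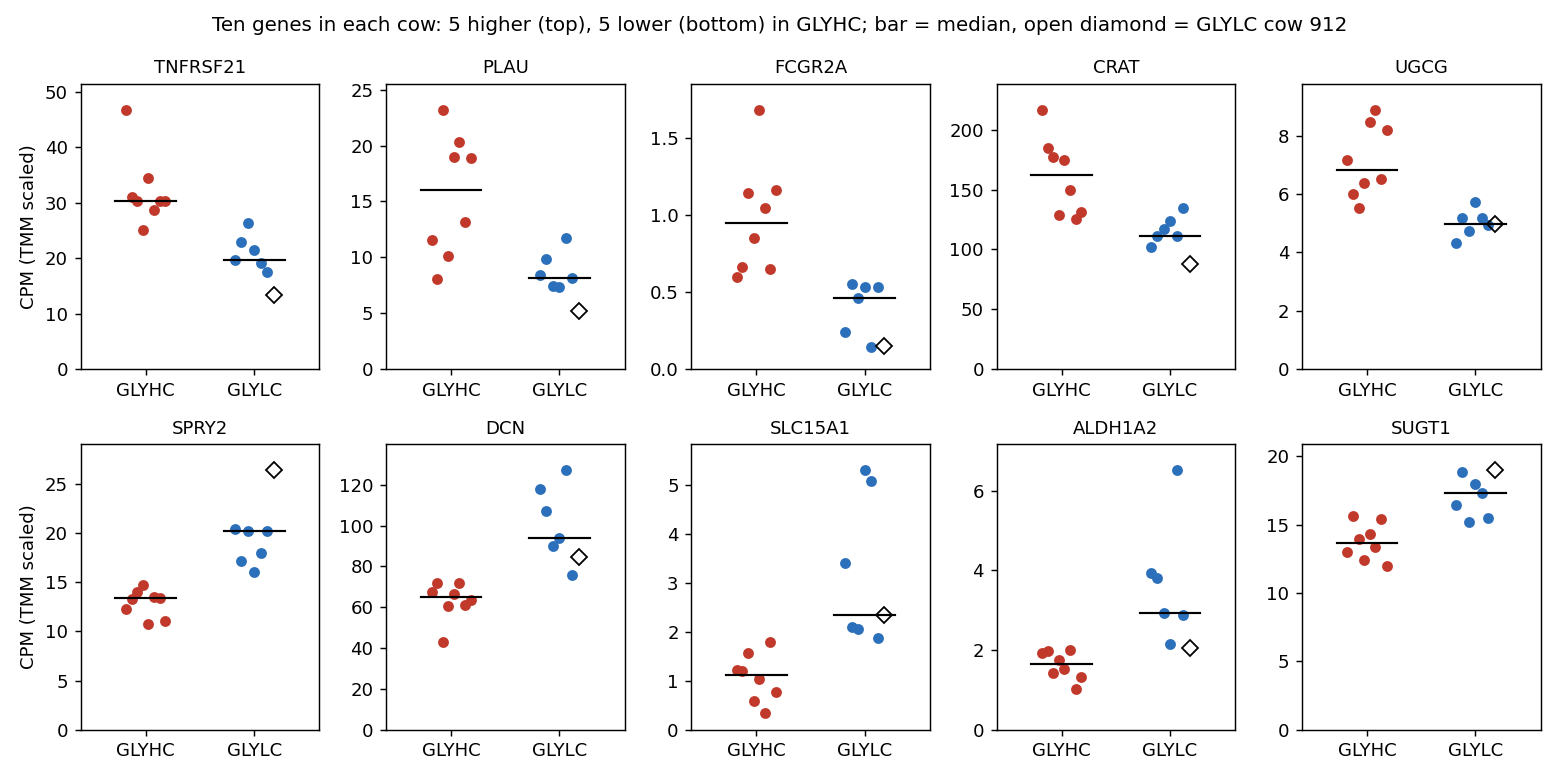
CPM (TMM scaled, axes from 0) of 10 genes in each of the 8 GLYHC and 7 GLYLC cows, with a bar at the group median and an open diamond for GLYLC cow 912. SPRY2, DCN, SLC15A1 and ALDH1A2 were lower, and FCGR2A was higher, in every GLYHC cow than in every GLYLC cow, while the other 5 genes overlapped.

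The proteasome, which degrades ubiquitin-tagged proteins, showed small differences spread over many of its subunits. Of 40 listed subunits and assembly factors, 35 had a log2 fold change below 0, and 21 were lower at an unadjusted p under 0.05 (7.6% of all tested genes), with 1 higher. None was called by edgeR, and the median log2 fold change was -0.17. Without cow 912 the counts were 34 below 0 and 18 lower (4.42% of all tested genes), with a median of -0.16. PSMD6, a subunit of the regulatory cap, was read at 21.0, 24.4 and 26.6 CPM in GLYHC and at 25.7, 28.7 and 40.5 CPM in GLYLC (log2 fold change -0.35 ± 0.08, edgeR adjusted p = 0.101) and was called by DESeq2. The cap subunits PSMD1 (-0.29 ± 0.07, adjusted p = 0.112) and PSMD12 (-0.27 ± 0.07, adjusted p = 0.117) and the ATPase PSMC2 (-0.29 ± 0.08, adjusted p = 0.117) followed. Among the 5 exceptions were the inducible subunits of the immunoproteasome, named here after their values were seen, with log2 fold changes of 0.63 for PSMB8, 0.58 for PSMB9 and 0.35 for PSMB10. PSMB8 ran from 14.2 to 104 CPM in GLYHC and from 14.4 to 28.6 in GLYLC, with nearly equal medians of 21.6 and 19.7. In CON cows, which share no animal with this comparison, 8 of the 40 proteasome genes were lower and none higher in CONHC than in CONLC at an unadjusted p under 0.05, with a median of -0.12. In that contrast 5.77% of all tested genes passed this threshold, counting both directions together.

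A few genes of the liver's supporting cells were called lower in GLYHC by DESeq2. Decorin (DCN), a small leucine-rich proteoglycan of the matrix, was read at 43.1, 65.1 and 71.8 CPM in GLYHC and at 75.9, 94.0 and 127 CPM in GLYLC. No GLYHC cow reached the lowest GLYLC cow. The log2 fold change was -0.65 ± 0.14, the edgeR adjusted p was 0.101, and DESeq2 called it (0.00201 on 15 cows, 0.000803 without cow 912). Asporin (ASPN), a proteoglycan of the same class, had medians of 38.2 and 58.0 CPM (-0.70 ± 0.17, edgeR adjusted p = 0.102) and was called by DESeq2. Over the fibroblast and matrix list 36 of 41 genes lay below 0, 7 were lower and none higher at an unadjusted p under 0.05 (7.6% of all tested genes lower), and the median was -0.39. Without cow 912 the list had 4 lower (4.42% of all tested genes) and a median of -0.33. Its summed level was nearly equal, with a median of 3458 CPM in GLYHC and 3438 CPM in GLYLC, and its scores by cow overlapped (-0.55 to 0.21 against -0.21 to 1.07 on the log2 scale). THBS1, a matrix glycoprotein, had medians of 12.6 and 18.2 CPM (-0.78 ± 0.29, adjusted p = 0.251). Most of the 41 therefore did not pass the unadjusted threshold. In CONHC against CONLC 12 of the 41 were lower and none higher at that threshold, with a median of -0.50. There 5.77% of all tested genes passed it, counting both directions together. In these bulk samples fewer cells of a type and less RNA per cell cannot be told apart.

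The list of pericyte and hepatic stellate cell genes covers the contractile and vitamin A-storing cells along the sinusoids. It held 11 of 26 lower and none higher at an unadjusted p under 0.05 (7 and none without cow 912). Its median was -0.26 (-0.27 without that cow), and 7.6% of all tested genes were lower (4.42% without that cow). ALDH1A2, which makes retinoic acid, was read at 1.01, 1.64 and 2.01 CPM in GLYHC and at 2.05, 2.93 and 6.51 CPM in GLYLC. The groups did not overlap, though the highest GLYHC cow lay just under the lowest GLYLC cow, which was cow 912. Its log2 fold change was -1.09 ± 0.27 with an edgeR adjusted p of 0.102, and DESeq2 called it (0.0236 on 15 cows, 0.00296 without cow 912). KCNJ8, a pericyte potassium channel subunit, had medians of 2.56 and 3.62 CPM (-0.63 ± 0.15, adjusted p = 0.102) and was called by DESeq2. NR2F1, a transcription factor, had medians of 1.93 and 2.96 CPM (-0.68 ± 0.22, adjusted p = 0.2).

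Smooth muscle genes followed cow 912 to a large extent. Of 26 contractile genes 14 were lower and none higher at an unadjusted p under 0.05, with a median of -0.97. Without cow 912 the count was 7 and the median -0.19. Of all tested genes 7.6% were lower, and 4.42% without that cow. DESeq2 called 4 of the list lower on 15 cows (0.203% of all tested genes) and 2 without cow 912 (0.226%). The list summed to between 354 and 931 CPM in GLYHC and between 412 and 584 CPM in the 6 other GLYLC cows, against 3340 CPM in cow 912. MYH11, the smooth muscle myosin heavy chain, was read at 19.6, 30.5 and 34.5 CPM in GLYHC and at 29.7, 45.1 and 738 CPM in GLYLC, and its log2 fold change moved from -2.30 to -0.52 when cow 912 was left out (edgeR unadjusted p = 0.00402). TAGLN moved likewise from -2.44 to -0.99 (unadjusted p = 0.0154) and CNN1 from -5.14 to -0.60 (unadjusted p = 0.295), both being actin-binding proteins of smooth muscle. ACTA2, named after its values were seen, moved less, from -1.21 to -1.12 (edgeR unadjusted p = 0.00792), and was called by DESeq2. Its highest value, 130 CPM, was that of another GLYLC cow, with 80.0 CPM in cow 912. Of 22 tested intestinal genes 14 were lower at an unadjusted p under 0.05, and when cow 912 was left out only 8 still had enough reads, of which 1 was lower. RBP2, an intestinal retinol-binding protein, stood at 90.5 CPM in cow 912 and at medians of 0.753 (GLYHC) and 0.762 CPM (GLYLC), and VIL1, a brush border protein, at 29.4 CPM and medians of 1.03 and 1.12 CPM. The part of other tissue in the lower values was not tested beyond leaving out this cow.

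**Figure D2:**
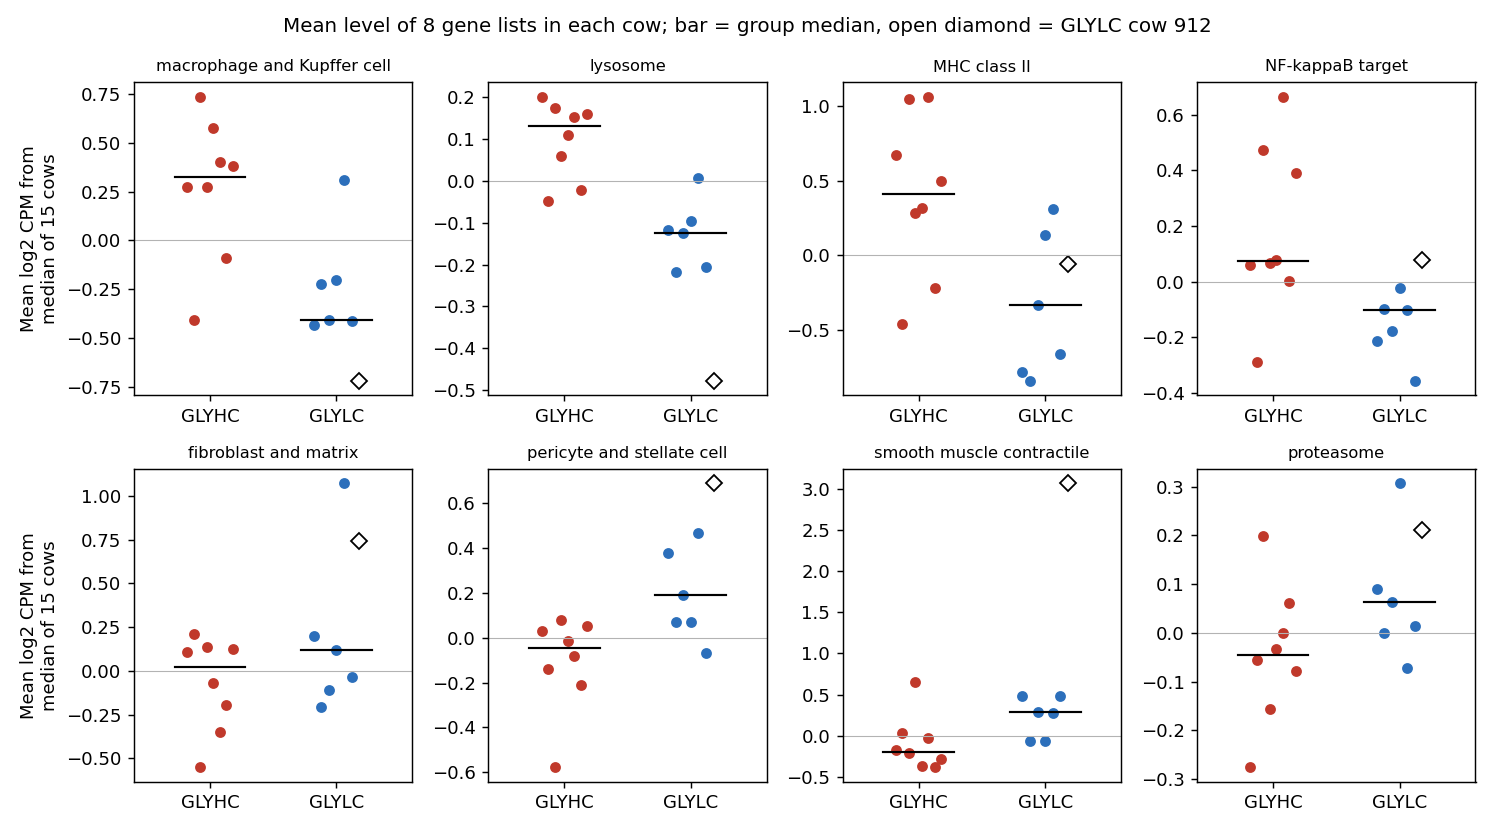
Mean over the tested genes of 8 lists of log2 CPM, expressed per gene as the distance from the 15-cow median, with 1 point per cow, a bar at the group median and an open diamond for GLYLC cow 912. Lysosome genes lay between -0.05 and 0.20 in GLYHC and between -0.48 and 0.01 in GLYLC, and the smooth muscle list reached 3.07 in cow 912.

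Lysosomal genes mostly lay above 0. Of 50 listed genes 46 had a log2 fold change above 0, and 21 were higher and none lower at an unadjusted p under 0.05 (5.13% of all tested genes higher). None was called by edgeR. DESeq2 called 6 of the 50 higher on 15 cows (0.367% of all tested genes) and 5 without cow 912 (0.346%). The median log2 fold change was 0.22, and without cow 912 the counts were 44 above 0 and 17 higher (4.01% of all tested genes) with a median of 0.17. LAMP1, a main protein of the lysosomal membrane, was read at 711, 839 and 938 CPM in GLYHC and at 541, 707 and 758 CPM in GLYLC (log2 fold change 0.33 ± 0.09, edgeR adjusted p = 0.118). CTSH, a cysteine protease of the lysosome, had medians of 44.1 and 22.0 CPM (0.84 ± 0.22, adjusted p = 0.112), and the carboxypeptidase SCPEP1 had medians of 131 and 104 CPM (0.35 ± 0.10, adjusted p = 0.13). All 3 were called by DESeq2, and the sulfatase ARSK, with medians of 27.8 and 21.6 CPM (0.41 ± 0.12, adjusted p = 0.137), was not. LAMP2, the companion of LAMP1 in the membrane and named after its value was seen, differed by -0.04 ± 0.08.

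Most macrophage genes also lay above 0. In a list of 32 macrophage and Kupffer cell genes 30 lay above 0, and 13 were higher and 1 lower at an unadjusted p under 0.05. The median was 0.42 (12 higher, 1 lower and 0.35 without cow 912). Over all tested genes 5.13% were higher and 7.6% lower (4.01% and 4.42% without cow 912). Scores by cow overlapped, at -0.41 to 0.74 in GLYHC and -0.72 to 0.31 in GLYLC on the log2 scale. The macrophage and lysosome lists share no gene. FCGR2A, a receptor for antibody-coated particles, was read at 0.594, 0.949 and 1.68 CPM in GLYHC and at 0.144, 0.462 and 0.551 CPM in GLYLC, so that the groups did not overlap. Its log2 fold change was 1.37 ± 0.32 (edgeR adjusted p = 0.102). CLEC4E, a pattern recognition receptor, had medians of 1.105 and 0.308 CPM (1.62 ± 0.43, adjusted p = 0.117), and lysozyme (LYZ), which cleaves bacterial cell walls, had medians of 50.9 and 15.7 CPM (1.45 ± 0.44, adjusted p = 0.191). CD84, a receptor of the SLAM family, had medians of 3.36 and 2.18 CPM (0.85 ± 0.24, adjusted p = 0.132). DESeq2 called these 4 genes. Not every macrophage marker differed: CD163 and MARCO, scavenger receptors named after their values were seen, differed by 0.08 ± 0.19 and -0.03 ± 0.43, and the member lower at the unadjusted threshold was CD14, the endotoxin co-receptor that hepatocytes also make (medians of 204 and 236 CPM, -0.31 ± 0.11, adjusted p = 0.244).

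The MHC class II and NF-kappaB lists also had medians above 0. All 13 tested MHC class II genes lay above 0, and 5 were higher and none lower at an unadjusted p under 0.05. The median was 0.53 (6 higher and 0.50 without cow 912). For this list and those that follow here, the share of all tested genes higher was 5.13% (4.01% without cow 912). CD74, the invariant chain, had medians of 386 and 226 CPM (0.57 ± 0.21, edgeR adjusted p = 0.254), and IFI30, a thiol reductase of antigen processing, had medians of 8.22 and 4.86 CPM (0.77 ± 0.26, adjusted p = 0.214). Of 27 NF-kappaB target genes 8 were higher and none lower with a median of 0.28, with or without cow 912 (0.28). ZC3H12A, an RNase that degrades inflammatory mRNAs, was read at 2.42, 4.66 and 6.80 CPM in GLYHC and at 2.02, 2.81 and 4.06 CPM in GLYLC (0.68 ± 0.16, adjusted p = 0.102), and RELB, a subunit of non-canonical NF-kappaB, had medians of 3.07 and 1.49 CPM (0.92 ± 0.25, adjusted p = 0.118). Both were called by DESeq2. Of 26 T and NK cell genes 23 lay above 0 with a median of 0.31 (0.30 without cow 912), and 2 were higher and none lower at an unadjusted p under 0.05, with none without that cow.

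Marker lists of other cell types had these counts at an unadjusted p under 0.05, beside 5.13% of all tested genes higher and 7.6% lower (4.01% and 4.42% without cow 912). Endothelial genes had 2 of 30 lower and none higher (median 0.002), and 1 of 30 lower without cow 912. Bile duct genes had 2 of 28 higher and 5 lower (median -0.03), and without that cow 3 of 27 higher and 4 lower (median 0.02). Hepatocyte genes had 2 of 26 higher and 3 lower (median 0.09), and without it 3 higher and 4 lower (median 0.01). Neutrophil genes had 1 of 10 higher and B and plasma cell genes 1 of 10 lower (medians 0.16 and -0.14), and without it neither list had a gene past this threshold (medians 0.25 and -0.06).

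The interferon-stimulated genes IFI6 and IFI27 were highest in the same pair of GLYHC cows, 117 and 131. IFI6, a mitochondrial interferon response protein, ran from 9.08 through 13.7 to 142 CPM in GLYHC and from 6.27 through 7.93 to 14.9 in GLYLC, and IFI27 from 15.96 through 30.7 to 255 CPM against 12.9, 21.5 and 35.4. Cows 117 and 131 read IFI6 at 142 and 123 CPM and IFI27 at 255 and 251 CPM. The log2 fold changes were 2.29 ± 0.57 (edgeR adjusted p = 0.105) and 1.86 ± 0.63 (adjusted p = 0.22). Of 34 listed genes 3 were higher at an unadjusted p under 0.05 and 8 without cow 912, with medians of 0.15 and 0.24. Of all tested genes 5.13% were higher, and 4.01% without that cow.

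Several single genes with small p values complete the higher side. TNFRSF21, a death domain receptor, had the smallest p among the higher genes above 0.5 CPM. It was read at 25.1, 30.4 and 46.8 CPM in GLYHC and at 13.3, 19.7 and 26.3 CPM in GLYLC, and a single GLYHC cow fell below the highest GLYLC cow. Its log2 fold change was 0.68 ± 0.15 (edgeR adjusted p = 0.101), and DESeq2 called it. PLAU, the urokinase that activates plasminogen, was read at 8.06, 16.02 and 23.2 CPM against 5.19, 8.14 and 11.7 CPM (0.90 ± 0.22, adjusted p = 0.102). TNFRSF9, a costimulatory receptor, was read at 0.308, 1.23 and 3.31 CPM against 0.0731, 0.241 and 0.551 CPM (2.32 ± 0.61, adjusted p = 0.116). Both genes were called by DESeq2, and for each the groups overlapped. PLAU belongs to the complement and coagulation list, in which 3 of 53 genes were higher and 9 lower at an unadjusted p under 0.05. Without cow 912 the counts were 2 and 9, and the median moved from 0.06 to 0.03. Of all tested genes 5.13% were higher and 7.6% lower (4.01% and 4.42% without that cow). In CON cows 12 of the 53 were higher and none lower, with a median of 0.15, beside 5.77% of all tested genes in both directions together.

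UGCG makes glucosylceramide, the first step to most glycosphingolipids. It was read at 5.50, 6.83 and 8.90 CPM in GLYHC and at 4.33, 4.97 and 5.74 CPM in GLYLC (log2 fold change 0.51 ± 0.11, edgeR adjusted p = 0.101), with overlap. ORAI2, a subunit of store-operated calcium channels, had medians of 1.63 and 0.676 CPM (1.29 ± 0.31, adjusted p = 0.102), and PKIB, an inhibitor of protein kinase A, had medians of 4.59 and 2.27 CPM (0.99 ± 0.25, adjusted p = 0.102). MFSD12, a lysosomal cysteine importer, had medians of 15.6 and 8.43 CPM (0.87 ± 0.22, adjusted p = 0.102). The chemokine CCL28 (1.09 ± 0.27), the mitochondrial outer membrane protein RMDN3 (0.38 ± 0.10) and the serine protease TMPRSS7 (1.35 ± 0.35) had adjusted p-values of 0.102, 0.105 and 0.105. DESeq2 called all of these genes, but not BRIP1, a DNA repair helicase with medians of 1.23 and 0.475 CPM (0.999 ± 0.24, adjusted p = 0.102).

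In nutrient metabolism CRAT was among the 14 higher genes with the smallest p. CRAT, carnitine acetyltransferase, which buffers the acetyl-CoA pool of mitochondria, was read at 125, 163 and 217 CPM in GLYHC and at 87.5, 112 and 135 CPM in GLYLC (log2 fold change 0.52 ± 0.13, edgeR adjusted p = 0.102), and DESeq2 called it. In the list of fatty acid oxidation and ketogenesis 5 of 35 genes were higher and none lower at an unadjusted p under 0.05 (4 and none without cow 912). The median was 0.14 (0.075 without cow 912), and 5.13% of all tested genes were higher (4.01% without that cow). ELOVL5, a fatty acid elongase, had medians of 222 and 137 CPM (0.89 ± 0.25, adjusted p = 0.136) and was 1 of 6 genes higher in the 37-gene list of lipogenesis, triglyceride and lipid droplet genes, whose median was 0.04. Without cow 912 this list had 3 higher and a median of -0.02, and that cow had the lowest sum of the list, 2975 CPM against at least 4109 CPM in the other 14. HSD17B13, a lipid droplet protein named after its values were seen, was read at 1128 to 2080 CPM in GLYHC and at 546 to 1028 CPM in GLYLC without overlap, and was called by DESeq2 (adjusted p = 0.0145 and 0.0216), although edgeR gave it an adjusted p of 0.412.

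Other metabolic lists were counted at an unadjusted p under 0.05. Of all tested genes 5.13% were higher and 7.6% lower at that threshold (4.01% and 4.42% without cow 912). Of 24 tested genes of gluconeogenesis and propionate entry 1 was higher and none lower, with a median of 0.004 (0.04 without cow 912). The urea cycle and ammonia list had 2 of 14 higher, NAGS (0.24 ± 0.11, edgeR adjusted p = 0.371) and GLS2 (0.57 ± 0.27, adjusted p = 0.376), and none without cow 912. Cholesterol synthesis and uptake had none of 26 at an unadjusted p under 0.05 in either direction, with a median of -0.06 (-0.10 without cow 912). Glycolysis and the pentose phosphate pathway had 3 of 30 higher with a median of 0.10, and 1 higher and 1 lower with a median of 0.12 without cow 912, which held the lowest sum of the list (3192 CPM, the other 14 at least 4860). Its member PFKFB3, which makes an activator of glycolysis, depended on 1 cow. With medians of 8.47 and 5.59 CPM its log2 fold change was 0.53 ± 0.22 (edgeR adjusted p = 0.296), but cow 912 held the highest value of all (13.6 CPM), and without it the log2 fold change was 0.82 (edgeR unadjusted p = 0.00011) and DESeq2 called the gene (adjusted p = 0.000457).

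Transport and detoxification genes had differences in both directions. SLC15A1, the intestinal-type peptide transporter, was read at 0.349, 1.11 and 1.79 CPM in GLYHC and at 1.86, 2.34 and 5.29 CPM in GLYLC, without overlap (log2 fold change -1.56 ± 0.39, edgeR adjusted p = 0.102). Cow 912 lay at the GLYLC median for this gene, and DESeq2 called it (0.00739 on 15 cows, 0.00296 without that cow). SLC15A3, a lysosomal relative, had medians of 8.23 and 4.91 CPM (0.69 ± 0.21, adjusted p = 0.18). The carbonyl reductase CBR3 had medians of 1.37 and 0.642 CPM (1.06 ± 0.27, adjusted p = 0.105), and SULT2A1, which sulfates bile acids and steroids, medians of 635 and 777 CPM (-0.35 ± 0.12, adjusted p = 0.215). Both were called by DESeq2. Cytochrome P450 genes had 4 of 25 higher and 2 lower at an unadjusted p under 0.05, and 2 of 24 higher and 2 lower without cow 912. That cow summed to 7880 CPM over the P450 list against 15280 to 23130 CPM in the other 14. The shares of all tested genes were 5.13% higher and 7.6% lower (4.01% and 4.42% without cow 912). The list included CYP3A4 at medians of 218 and 139 CPM (0.58 ± 0.17, adjusted p = 0.157) and CYP1A2 at 2749 and 3948 CPM (-0.33 ± 0.15, adjusted p = 0.369, and -0.43 without cow 912).

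The acute phase list holds plasma proteins that the liver makes in response to inflammation. In the acute phase list 7 of 26 were lower and none higher at an unadjusted p under 0.05 (4 and none without cow 912). The median of -0.18 shrank to -0.02 without that cow, which held the highest sum of the list (170300 CPM, other GLY cows at most 114400). Over all tested genes 5.13% were higher and 7.6% lower (4.01% and 4.42% without cow 912). The 3 fibrinogen chains FGG, FGA and FGB had log2 fold changes of -0.66 ± 0.19, -0.56 ± 0.17 and -0.51 ± 0.17 (edgeR adjusted p = 0.137, 0.191 and 0.215), and without cow 912 of -0.45, -0.37 and -0.37. None of them was called by DESeq2. In CON cows the 3 chains lay on the other side of 0, at 0.22, 0.16 and 0.22, but edgeR called the interaction for none of them. The acute phase list had 3 of 26 higher and none lower in CON cows at an unadjusted p under 0.05, with a median of 0.29. There 5.77% of all tested genes passed that threshold, counting both directions together. Cell division genes were higher in 7 of 43 with none lower (median 0.49, and 5 of 43 with 0.41 without cow 912), led by the condensin subunit SMC2 (0.60 ± 0.16, adjusted p = 0.117), which DESeq2 called, and by the G1 cyclin CCND1 (1.196 ± 0.33, adjusted p = 0.132), which it did not call in both fits.

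**Figure D3:**
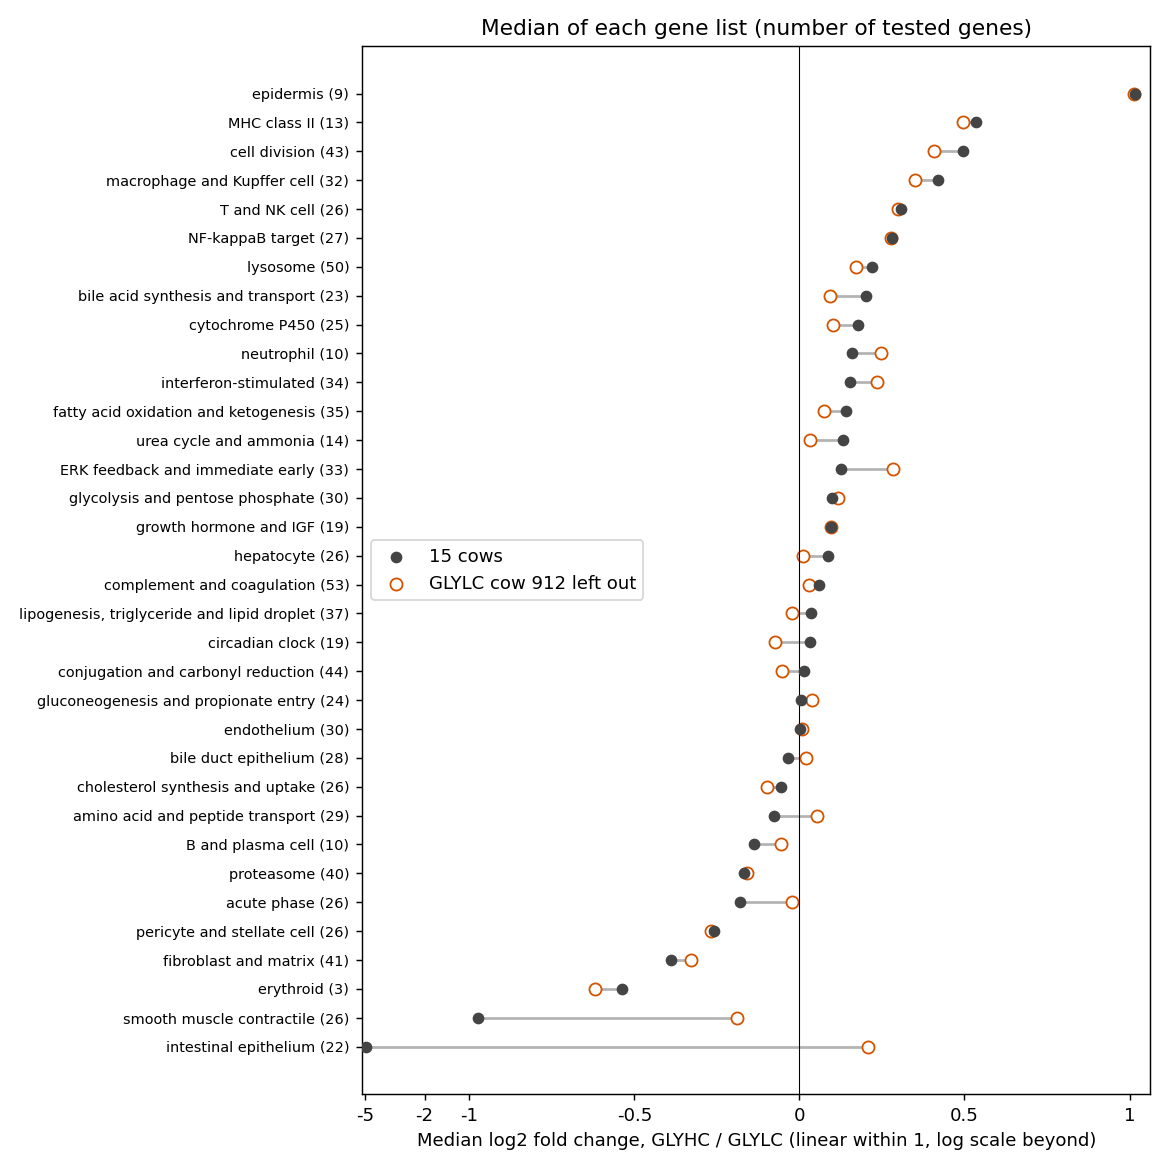
Median log2 fold change (GLYHC over GLYLC) of each of 34 gene lists over all 15 cows (filled) and with GLYLC cow 912 left out (open), with the number of tested genes in brackets; the axis is linear within 1 and logarithmic beyond. The macrophage, MHC class II and lysosome medians stayed above 0 and the proteasome, fibroblast and stellate cell medians below 0, while the intestinal median moved from -4.97 to 0.21 and the smooth muscle median from -0.97 to -0.19.

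The same contrast in CON cows, CONHC against CONLC, shares no cow with this one, although the spread was estimated over all 31. By edgeR no gene was called there (smallest adjusted p = 0.132, 881 genes at an unadjusted p under 0.05, 5.77%). Of the 14 higher genes with the smallest p in GLY cows, 11 had a log2 fold change of the same sign in CON cows, 5 of them at an unadjusted p under 0.05 (FCGR2A, ORAI2, CCL28, PKIB and TMPRSS7), and of the 14 lower genes 13 had the same sign, 2 of them at that threshold (SUGT1 and DCN). Over all tested genes 58.3% had the same sign. The median difference was smaller in CON cows, 0.31 against 0.95 for the higher genes and -0.25 against -0.74 for the lower genes, but the genes were picked for their difference in GLY cows, which by itself favours larger values there. Cow 912 also enlarged the GLY values of the lower genes ACTG2, S100G, CNN1, MYH11, RBP2 and TAGLN. These were -6.31, -5.51, -5.14, -2.30, -4.15 and -2.44 with that cow. Without it they were -0.96, -1.30, -0.60, -0.52, -0.48 and -0.99. Across the 12538 genes with a median of at least 0.5 CPM the log2 fold changes of both contrasts had a Pearson r of 0.25 (0.26 without cow 912), given as a description since genes are not independent replicates.

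Some genes were alike in both contrasts and others were not. CLEC4E differed by 1.62 in GLY and 1.67 in CON cows. The macrophage list had a median of 0.33 in CON cows, with 8 of 32 higher and none lower at an unadjusted p under 0.05. Of all tested genes 5.77% passed that threshold in CON cows, counting both directions together. SPRY2, by contrast, differed by -0.04 in CON cows, CRAT by -0.10, MFSD12 by -0.18 and BRIP1 by -0.11. For no gene was the difference between the contrasts called by edgeR (interaction of GLY with CFP, smallest adjusted p = 0.217, 634 genes at an unadjusted p under 0.05, 4.15%), and DESeq2 on all 31 cows called 1.

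That gene was GPT2, the mitochondrial alanine aminotransferase, which feeds alanine carbon into gluconeogenesis. It was read at 9.71, 14.03 and 20.8 CPM in GLYHC and at 5.69, 9.38 and 13.6 CPM in GLYLC, but at 7.25, 10.5 and 13.9 CPM in CONHC and at 12.9, 16.8 and 26.3 CPM in CONLC. GLYHC thus had the higher median in GLY cows (log2 fold change 0.54 ± 0.19, edgeR adjusted p = 0.228) and CONHC the lower median in CON cows (-0.79 ± 0.18, adjusted p = 0.193). The interaction was 1.33 ± 0.26 (edgeR adjusted p = 0.217) and was called only by DESeq2 (1.33 ± 0.27, adjusted p = 0.00792).

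**Figure D4:**
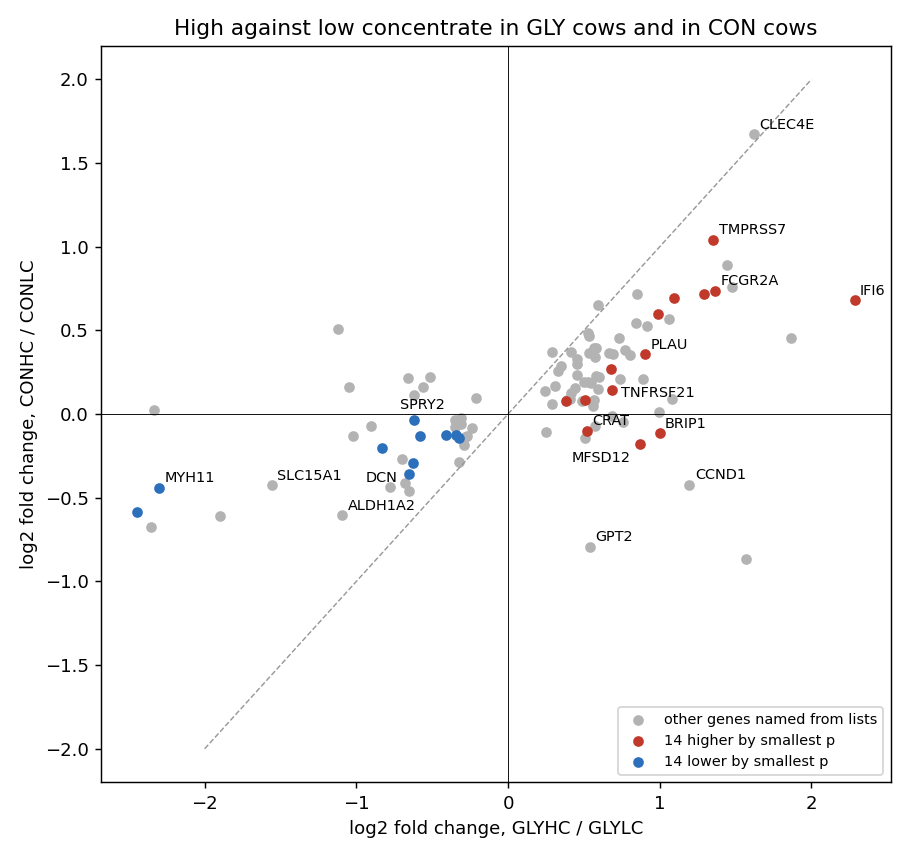
Log2 fold change for high against low concentrate in GLY cows (horizontal) and in CON cows (vertical) for the genes named by rule, with the dashed line marking equal values. Genes whose log2 fold change in GLY cows exceeded 2.6 in size, such as ACTG2 and KRT1, are not drawn, and GPT2 lies below 0 in CON cows and above 0 in GLY cows.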

How the data were processed

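The authors prepared stranded mRNA libraries, checked and trimmed reads (FastQC, Trim Galore), aligned them with HISAT2 2.1.0 to UMD3.1, and deposited raw counts per Ensembl gene (HTSeq 0.8.0, uniquely mapped reads). The strand setting of the counting was not given in the sources used here, so overlapping genes may share reads. The deposited normalized table was not used. No annotation of that build was at hand, so coordinates and sequences are not given, and symbols are those of the table.

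All 31 columns matched a labelled cow. Counts of genes with at least 20 reads over the 15 GLY cows were fitted with edgeR 4.0.16 in R 4.3.3 (TMM, robust quasi-likelihood, 1 model of 4 groups), and SE is the size of the log2 fold change over the square root of F. DESeq2 1.42.0 was the alternative. The steps were tested on simulated data. No pair of cows agreed within sampling noise.

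Named genes were the 14 with the smallest p in each direction among genes with a symbol and a median of at least 0.5 CPM, up to 4 members of each list with the smallest p above that median, PLAU and TNFRSF9 (measured by qRT-PCR in the study), and the called genes below that median with the largest change. The members and lists were chosen with earlier results of these data known.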

Additional observations from a re-analysis of the deposited data

Results flagged for a closer look

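Dixon's test was applied in 66 groups of cows (GLYHC or GLYLC, for 32 genes and the number of assigned reads). In 19 of them a cow stood apart from the rest of its group. The genes were picked from these same data, several through the extreme value of cow 912. The usual 1 in 20 by chance is therefore no baseline here. The test also does not hold where nearly all cows of a group had no read, as for KRT1 in GLYLC, FABP2 and BCO1. GLYLC cow 912 accounted for 11 of the 19. All gene values here are log2 CPM with a prior count of 2, and the nearest other cow of the group is given in brackets.

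Cow 912 was highest of the GLYLC cows for the smooth muscle genes MYH11 at 9.53 (5.68), ACTG2 at 8.47 (1.07), TAGLN at 7.41 (4.67) and CNN1 at 6.96 (0.35). It was also highest for genes typical of intestinal epithelium, with FABP2 at 7.69 (-2.88), S100G at 7.46 (1.57), RBP2 at 6.50 (1.29) and BCO1 at 5.55 (-3.38). SELENOK at 5.70 (4.77) and the proteasome subunit PSMD6 at 5.34 (4.95) were highest in the same cow, and RMDN3 was lowest in it at 4.93 (5.25). Cow 912 was left out as an alternative throughout. Before these flags it was already known to hold genes read almost only there.

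The other 8 cases lay in 7 other cows. KRT1 stood at -2.74 (-3.38) in GLYLC cow 905, FABP2 at -1.95 (-3.38) in GLYHC cow 154 and BCO1 at -2.58 (-3.38) in GLYHC cow 117, each resting on a few reads where the next cow had none. DCN was lowest in GLYHC cow 117 at 5.43 (5.92). PKIB was lowest in GLYHC cow 37 at 0.79 (1.87) and in GLYLC cow 42 at 0.62 (1.23), and MFSD12 was highest in GLYLC cow 102 at 3.90 (3.29). GLYLC cow 209 was the most deeply sequenced of its group, with 25.13 as log2 of its assigned reads (24.56).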

How the results depend on the processing

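Which genes passed the threshold depended strongly on the processing, whereas directions mostly did not. Against 1 gene higher and 7 lower, the counts were 2 and 8 with RLE size factors, 16 and 38 with upper-quartile scaling, 0 and 0 without a filter on low counts, 0 and 5 with filterByExpr, 16 and 50 without robust estimation, 0 and 0 with only the 15 GLY cows in edgeR, and 0 and 0 at an adjusted p under 0.05. DESeq2 gave 56 and 31 on 15 cows, 72 and 71 on all 31, and 52 and 34 without cow 912. With no replacement of outlying counts, a setting chosen after seeing the data, it gave 55 and 30, and 46 and 28 without cow 912, and 7 of the 58 shared calls, KCNJ8 and TMPRSS7 among them, were not kept in all 4 fits. The number of genes lower at an unadjusted p under 0.05 was 578 in DESeq2 without cow 912 against 1160.

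Leaving out 1 cow at a time gave 0 to 36 genes higher and 0 to 104 lower (36 and 104 without GLYLC cow 147, 0 and 0 without GLYHC cow 32, 117 or 154 or GLYLC cow 912), and 664 to 1285 genes lower at an unadjusted p under 0.05. The interaction count was 0 to 1 (1 without GLYHC cow 159 or GLYLC cow 42), and 1 with DESeq2 on 31 cows. Of 2956 values of the 114 named genes under alternatives, 4 changed sign, all where DESeq2 replaced counts of cow 912: FABP2 at 1.193 on 15 cows and 1.199 on 31, and BCO1 at 0.504 and 0.504. Of 850 list medians, 8 moved by more than the spread between cows. No paired analysis was possible because the groups share no cow numbers. Genes read at under 1 CPM, such as FCGR2A in GLYLC, rest on few reads, and 7 against 8 cows limit what could be called.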
